A study of Homo sapiens with 9 samples.

Results

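The genes described here are the 37 genes of the human mitochondrial genome, chosen as all rows of the count table on chromosome MT, out of 58735 genes in all. They comprise 13 mRNAs, 2 rRNAs and 22 tRNAs, and 25 of them (all 13 mRNAs, both rRNAs and 10 tRNAs) had enough counts to be tested. RNA was sequenced in bulk from FaDu, an established cell line of human hypopharyngeal squamous carcinoma, grown without further treatment in minimum essential medium with fetal bovine serum. There were 3 groups of 3 libraries, named here by their labels: control, with wild-type genotype, KD_NC, with AMIGO2 knockdown, and KD_OE, which carries the AMIGO2 knockdown of KD_NC and in addition CAPN2 overexpression. AMIGO2 is a leucine-rich repeat protein of the cell surface, and CAPN2 is the catalytic subunit of the protease calpain-2. How the knockdown and the overexpression were made, and whether each was a single clone, is not given in the sources used here, and the labels call the libraries of a group biological replicates.

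The mitochondrial genome is a small circle transcribed from both strands as long precursors that cross many genes. The precursors are cut apart mostly at the tRNAs that lie between the other genes, and the rRNAs and most of the mRNAs then receive short adenine tails. Its mRNAs encode core subunits of respiratory complexes I, III, IV and V, the machinery of oxidative phosphorylation, and its rRNAs and tRNAs serve the translation of those mRNAs inside the organelle. Genes of a strand share a precursor, and their steady-state levels also depend on processing and decay. Nuclear genes supply the polymerase, the processing enzymes and the ribosomal proteins.

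Totals ran from 15158607 to 19737562 counts per library, so 3 counts corresponded to between 0.152 and 0.198 CPM (counts scaled to a common library size). No fall of AMIGO2 was called in the libraries that carry its knockdown label: its level was 27.55 ± 1.73 CPM in control (SD, n = 3), 27.63 ± 3.404 CPM in the KD_NC libraries and 38.89 ± 3.78 CPM in the KD_OE libraries. CAPN2 stood at 461.6, 417.1 and 497.9 CPM in the same order. Both genes were called higher in KD_OE against KD_NC. For KD_OE against control AMIGO2 was called higher and CAPN2 was not called. Every direction below is therefore between libraries so labelled. All 8 squamous epithelial markers were above 1 CPM. Their summed level was 7310 to 7750 CPM in control, 3840 to 4760 CPM in the KD_NC libraries and 4470 to 5010 CPM in the KD_OE libraries, most of it from KRT5 (4429 ± 133, 1205 ± 180 and 1613 ± 121 CPM), while CDH1 was at 380.1 ± 6.4, 454.1 ± 25.6 and 613.2 ± 15.8 CPM. Endothelial markers, with 1 of 5 at 0 in all libraries, summed to 17.6 to 22.4, 43.3 to 49.4 and 16.2 to 16.5 CPM. Most of that was CDH5 (14.8 ± 2.4, 43.1 ± 2.9 and 13.6 ± 0.5 CPM), while VWF was at 5.66 ± 0.56, 2.44 ± 0.35 and 2.61 ± 0.29 CPM. Blood markers, with 1 of 6 at 0, summed to 14.7 to 18.6, 18.5 to 25.1 and 5.61 to 9.16 CPM. Only CD14 (15.96 ± 2.14, 22.44 ± 3.55 and 7.32 ± 1.72 CPM) was above 1 CPM among them. Fibroblast markers, with 2 of 6 at 0, summed to 7.97 to 9.59, 10.9 to 13.8 and 13.4 to 15.5 CPM. Of these only COL1A1 (8.96 ± 0.87, 11.95 ± 1.51 and 14.53 ± 1.04 CPM) was above 1 CPM. The part of these shifts in the results was not tested. The KD_NC libraries also differed more among themselves than those of the other groups, with a chi-square per gene of 20.9 to 21.5 between pairs, against 2.69 to 5.04 in control and 3.01 to 7.52 in the KD_OE libraries (sampling noise alone gives about 1). Replicate 1 of the KD_NC libraries stood apart for mitochondrial genes, and results that rest on it are given with and without it.

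The sequences of 7 members are shown because the results turn on them. They are taken from the GENCODE v29 transcripts, whose coordinates are those of the count table (GRCh38). MT-ATP8 (chrM:8366-8572, plus strand) was the mRNA with the lowest level and shares its last bases with MT-ATP6, in capitals. The other 6 are the tRNAs for asparagine, cysteine, tyrosine, proline, histidine and glycine, each described library by library below, with the anticodon in capitals. MT-TN (chrM:5657-5729), MT-TC (chrM:5761-5826), MT-TY (chrM:5826-5891) and MT-TP (chrM:15956-16023) are on the minus strand, and MT-TH (chrM:12138-12206) and MT-TG (chrM:9991-10058) on the plus strand.
MT-ATP8: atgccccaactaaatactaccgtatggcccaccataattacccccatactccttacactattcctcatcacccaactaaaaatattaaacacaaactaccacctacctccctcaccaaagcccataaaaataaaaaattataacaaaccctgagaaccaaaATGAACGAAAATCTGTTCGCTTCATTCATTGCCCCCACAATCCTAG
MT-TN: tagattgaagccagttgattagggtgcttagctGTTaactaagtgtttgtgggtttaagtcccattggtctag
MT-TC: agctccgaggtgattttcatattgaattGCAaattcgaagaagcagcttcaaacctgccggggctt
MT-TY: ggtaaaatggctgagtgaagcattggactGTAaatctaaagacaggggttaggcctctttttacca
MT-TP: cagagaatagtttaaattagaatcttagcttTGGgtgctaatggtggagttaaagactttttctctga
MT-TH: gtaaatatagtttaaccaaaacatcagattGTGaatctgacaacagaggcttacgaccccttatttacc
MT-TG: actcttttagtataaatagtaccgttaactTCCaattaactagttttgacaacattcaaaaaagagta

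Mitochondrial genes took 5.77% ± 0.23 of all counts in control (SD, n = 3), 6.71% ± 0.76 in the KD_NC libraries and 6.97% ± 0.28 in the KD_OE libraries. The classes did not move alike. The share of the 13 mRNAs was 5.06, 5.06 and 5.42% in control, 4.93, 6.03 and 6.199% in the KD_NC libraries, and 5.84, 6.202 and 5.65% in the KD_OE libraries. It lay above control in all 3 of the last, by 1.14 times, and overlapped control in the KD_NC libraries, where replicate 1 was the lowest of all 9 libraries. These are shares of raw counts. On CPM scaled by the trimmed mean of M values, the mRNA levels of KD_OE and control overlapped. The share of the 2 rRNAs was 0.552, 0.537 and 0.583% in control, 0.877, 0.901 and 1.08% in the KD_NC libraries, and 1.017, 1.051 and 1.049% in the KD_OE libraries. Both KD_NC and KD_OE were above every control library for rRNAs, by 1.71 and 1.86 times, and overlapped each other. The 22 tRNAs took far less, 0.0354% ± 0.0019 in control, 0.0347% ± 0.0108 in the KD_NC libraries and 0.0284% ± 0.0031 in the KD_OE libraries. The last group was below every control library, at 0.803 of the control mean, whereas the KD_NC libraries ran from 0.0249% in replicate 2 to 0.0463% in replicate 1, on both sides of control. Libraries were prepared from total RNA with the NEBNext Ultra RNA kit. Such kits favour longer fragments, so counts on a tRNA of 59 to 75 bases are not a measure of mature tRNA and can include reads from precursors or neighbours. In bulk RNA, fewer cells of a kind and less RNA per cell cannot be told apart.

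**Figure D1:**
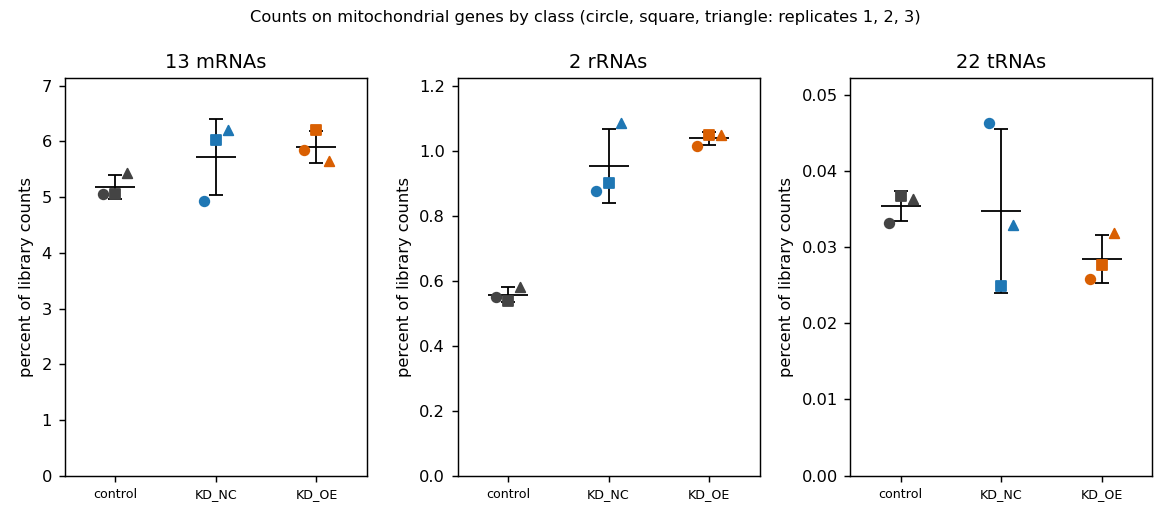
Percent of each library's counts on the 13 mRNAs, 2 rRNAs and 22 tRNAs of the mitochondrial genome (vertical axes, from 0) by group; symbols are replicates, the horizontal bar is the mean and the whiskers are the SD (n = 3). The rRNA share lies above control in all 6 other libraries, and the tRNA share of the KD_NC libraries spans 0.0249 to 0.0463%.

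Single genes were tested with edgeR's quasi-likelihood test over 16812 genes, and called at a Benjamini-Hochberg adjusted p under 0.05. In the KD_NC libraries against control, 2 of 13 mRNAs rose (MT-ND1 and MT-ND6) and 2 fell (MT-CO3 and MT-ND3), where 34.6% of all genes tested were called, 16.0% higher and 18.5% lower. The median log2 fold change of the 13 mRNAs was 0.12, beside -0.01 over all genes. KD_OE against KD_NC gave 3 higher mRNAs (MT-ND2, MT-ATP8 and MT-ND4L) and 5 lower ones (MT-ND1, MT-ND3, MT-ND6, MT-CO3 and MT-CYB), where 49.2% of all genes were called, 23.7% higher and 25.6% lower. The median was -0.16, beside 0.01 over all genes. Between the KD_OE libraries and control, 4 mRNAs rose (MT-CO1, MT-ATP8, MT-ND4L and MT-ND4) and 3 fell (MT-CO3, MT-ND3 and MT-CYB), where 56.3% of all genes were called, 27.9% higher and 28.4% lower. The median here was 0.10, beside 0.02. The share of mRNAs called, 4, 8 and 7 of 13, was near the share of all genes called in each comparison. Among the 2297 genes with a mean of at least 100 CPM, which include every mRNA but MT-ATP8, 49.4%, 63.6% and 72.1% were called. The groups were apart, with no overlap of libraries, for 4, 7 and 10 of the 13 mRNAs, beside 44.7%, 54.0% and 66.9% of all genes tested. The 3 comparisons share libraries, so their values are set side by side and not tested against each other.

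**Figure D2:**
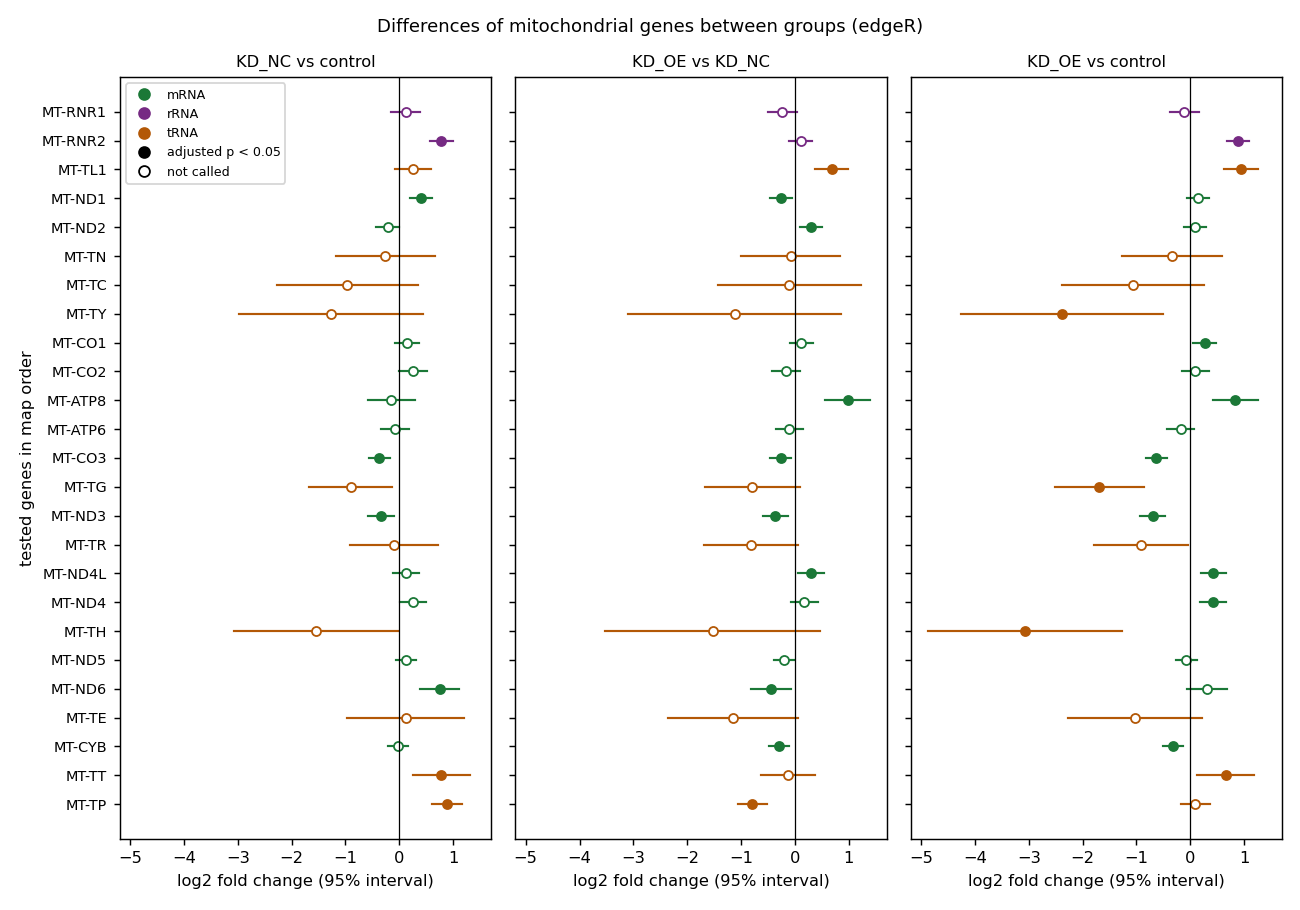
Log2 fold change (horizontal axis) with its 95% interval for the 25 tested mitochondrial genes in map order (vertical axis) in the 3 comparisons, from edgeR's quasi-likelihood test; colour gives the class and filled points have an adjusted p under 0.05. MT-RNR2 stands to the right of 0 in both comparisons with control, and several tRNAs have intervals more than 1 log2 unit wide on each side. MT-TH is filled for KD_OE against control, where it had to differ because of the filter on low counts.

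Among the rRNAs, MT-RNR2 rose in both KD_NC and KD_OE and MT-RNR1 was not called in any comparison in the fit of all libraries. MT-RNR2 (1671 to 3229, plus strand) encodes the rRNA of the large mitochondrial ribosomal subunit. Its level was 5015, 4984 and 5384 CPM in control, 7818, 8320 and 10270 CPM in the KD_NC libraries, and 9265, 9648 and 9535 CPM in the KD_OE libraries. Every library of both KD_NC and KD_OE was above every control library. The log2 fold change against control was 0.78 ± 0.10 (SE, adjusted p = 1.01e-05) in the KD_NC libraries and 0.89 ± 0.10 (adjusted p = 4.68e-07) in the KD_OE libraries, and both calls were made in all 18 alternative analyses. Between KD_NC and KD_OE it differed by 0.11, with a 95% interval from -0.10 to 0.32, and by 0.22 (adjusted p = 0.00929) without KD_NC replicate 3. MT-RNR1 (648 to 1601, plus strand), the rRNA of the small subunit that lies just upstream, stood at 631.4, 617.0 and 695.5 CPM in control, at 749.6, 518.4 and 847.7 CPM in the KD_NC libraries and at 584.7, 573.5 and 644.8 CPM in the KD_OE libraries. The groups overlapped, with a log2 fold change against control of 0.12 (95% interval -0.15 to 0.39) and -0.11 (-0.38 to 0.16). Without KD_NC replicate 2, MT-RNR1 was 0.33 higher in KD_NC than in control (adjusted p = 0.00895), and KD_OE against KD_NC was at -0.45 (adjusted p = 0.000348). Without the filter on low counts the latter was at -0.27 (adjusted p = 0.0239). The ratio of MT-RNR2 to MT-RNR1 counts was 7.74 to 8.08 in control, 10.4, 16.1 and 12.1 in the KD_NC libraries and 14.8 to 16.8 in the KD_OE libraries, so control did not overlap either group.

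Complex I, the NADH dehydrogenase, has 7 mitochondrial mRNAs. Together they took 1.90% ± 0.06 of counts in control, 2.22% ± 0.31 in the KD_NC libraries and 2.40% ± 0.14 in the KD_OE libraries, which lay above every control library by 1.26 times. Single members moved in different directions. MT-ND1 (3307 to 4262) rose in the KD_NC libraries, from 1724, 1742 and 1873 CPM in control to 2106, 2275 and 2673 CPM, with no overlap. It was at 1890, 2099 and 1913 CPM in the KD_OE libraries, below all KD_NC libraries and above all of control. Its log2 fold change came to 0.40 ± 0.10 (adjusted p = 0.00309, called in all 18 alternatives) for KD_NC against control, -0.26 ± 0.10 (adjusted p = 0.0321) for KD_OE against KD_NC, and 0.14 (adjusted p = 0.209, and 0.0181 in a fit of only these 2 groups) for KD_OE against control, where upper-quartile factors gave 0.25 (adjusted p = 0.0295). The fall in KD_OE against KD_NC was lost without replicate 3 of the KD_NC libraries or without replicate 1 or 3 of the KD_OE libraries (adjusted p = 0.0743 to 0.0923).

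MT-ND2 (4470 to 5511), which lies after MT-ND1 on the same precursor, showed another pattern. Its level was 3143, 3229 and 3476 CPM in control, 2431, 2910 and 3148 CPM in the KD_NC libraries, and 3511, 3746 and 3215 CPM in the KD_OE libraries. It rose in KD_OE against KD_NC by 0.30 ± 0.10 (adjusted p = 0.0176), with no overlap between these groups. Replicate 1 of the KD_NC libraries was the lowest of the 9. Without it the log2 fold change was 0.19 (adjusted p = 0.0761), and the call was also lost without replicate 1 or 2 of the KD_OE libraries (adjusted p up to 0.108). Against control the differences of MT-ND2 were -0.21 (adjusted p = 0.107, and 0.0154 without KD_NC replicate 3) and 0.09 (adjusted p = 0.471). For KD_NC against control MT-ND2 was called lower after correction for GC content and length, at -0.39 (adjusted p = 0.000301), and after correction for GC content alone, at -0.36 (adjusted p = 0.00481).

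MT-ND3 (10059 to 10404) fell in both KD_NC and KD_OE. It stood at 1131, 1184 and 1222 CPM in control, at 861.2, 788.6 and 1149 CPM in the KD_NC libraries and at 738.8, 766.1 and 677.3 CPM in the KD_OE libraries. Replicate 3 of the KD_NC libraries was within the control range, whereas all 3 KD_OE libraries were below every other library. The log2 fold change was -0.34 ± 0.11 (adjusted p = 0.025) for KD_NC against control, -0.36 ± 0.11 (adjusted p = 0.0124) for KD_OE against KD_NC and -0.70 ± 0.11 (adjusted p = 3.17e-05) for KD_OE against control. The last was called in all 18 alternatives. The call for KD_NC against control was lost in 6 of 18, among them 5 that leave out a library (control 2 or 3, KD_NC 1 or 2, KD_OE 1), with adjusted p = 0.0545 to 0.162. The call for KD_OE against KD_NC was lost without replicate 3 of the KD_OE libraries (adjusted p = 0.0543), and the value was -0.19, still called, without replicate 3 of the KD_NC libraries. The 3 values were larger after correction for GC content and length, at -0.55 (adjusted p = 0.00975), -0.60 (adjusted p = 0.00371) and -1.15 (adjusted p = 3.55e-05).

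MT-ND4L (10470 to 10766) and MT-ND4 (10760 to 12137) share 7 bases and are made as a joint mRNA with overlapping reading frames. MT-ND4 was at 8206, 8375 and 8828 CPM in control, at 7835, 11410 and 10970 CPM in the KD_NC libraries and at 11610, 11950 and 10710 CPM in the KD_OE libraries. The last group lay above every control library, with a log2 fold change of 0.43 ± 0.12 (adjusted p = 0.00377) that was called in all 18 alternatives. Replicate 1 of the KD_NC libraries was the lowest library. For KD_NC against control the difference was 0.25 (adjusted p = 0.103) with that library and 0.40 (adjusted p = 0.00079) without it, and 0.27 (adjusted p = 0.0211) without the filter on low counts. For KD_OE against KD_NC, MT-ND4 was at 0.18 (adjusted p = 0.206), and at 0.24 (adjusted p = 0.0355) after correction for GC content and length. MT-ND4L stood at 1757, 1820 and 2032 CPM in control, at 1778, 2480 and 1867 CPM in the KD_NC libraries and at 2572, 2695 and 2300 CPM in the KD_OE libraries. It rose in the last group by 0.43 ± 0.11 against control (adjusted p = 0.00319). That call was lost after correction for GC content and length, at 0.10 (adjusted p = 0.375), and the value was 0.24 (adjusted p = 0.0366) after correction for GC content alone. Against the KD_NC libraries it rose by 0.31 ± 0.11 (adjusted p = 0.032), a call lost in 7 of 18 alternatives, 5 of which leave out a library (control 1, KD_NC 1 or 3, KD_OE 1 or 2), with adjusted p = 0.0508 to 0.14. The ratio of MT-ND4 to MT-ND4L counts was 4.54 ± 0.17 in control and 4.53 ± 0.11 in the KD_OE libraries, and 4.41, 4.60 and 5.88 in the KD_NC libraries.

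MT-ND5 (12337 to 14148) was not called in any comparison in the fit of all libraries. It stood at 2496 to 2549 CPM in control, at 2570 to 3086 CPM in the KD_NC libraries and at 2258 to 2543 CPM in the KD_OE libraries. The difference in KD_OE against KD_NC was -0.20 (95% interval -0.39 to -0.01, adjusted p = 0.0808), and -0.25 without replicate 1 (adjusted p = 0.023) or 3 (adjusted p = 0.0181) of the KD_NC libraries. It was also called with DESeq2 (adjusted p = 0.0319), without the filter on low counts (adjusted p = 0.0493) and after correction for GC content (adjusted p = 0.0352).

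MT-ND6 (14149 to 14673, minus strand) is the only mitochondrial mRNA on the minus strand, transcribed in the opposite direction to the other 12 mRNAs. It was at 641.3, 662.9 and 593.5 CPM in control, at 704.1, 1181 and 1313 CPM in the KD_NC libraries and at 770.3, 843.7 and 736.5 CPM in the KD_OE libraries. All 6 KD_NC and KD_OE libraries were above control, and replicates 2 and 3 of the KD_NC libraries were the highest. MT-ND6 rose by 0.75 ± 0.17 in the KD_NC libraries (adjusted p = 0.00442), a call lost in 1 of 18 alternatives, the correction for GC content and length (0.57, adjusted p = 0.0691). In KD_OE against KD_NC it fell by 0.44 ± 0.17 (adjusted p = 0.0463), and by 0.68 (adjusted p = 5.07e-06) without replicate 1 of the KD_NC libraries. The call was lost in 11 of 18 alternatives, 7 of them leaving out a library (control 1 or 2, KD_NC 2 or 3, and each of KD_OE; adjusted p = 0.0508 to 0.24). KD_OE against control gave 0.31 (adjusted p = 0.144), beside 0.30 (adjusted p = 0.00305) without replicate 1 of the KD_NC libraries, 0.29 (adjusted p = 0.014) without the filter on low counts and 0.31 (adjusted p = 0.00011) in a fit of only these 2 groups. Reads from the opposite strand of this gene could not be told apart, since the kit does not mark strand.

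Complex III has a single mitochondrial mRNA, MT-CYB (14747 to 15887), for cytochrome b. It was at 2441, 2457 and 2711 CPM in control, at 2301, 2456 and 2711 CPM in the KD_NC libraries and at 1970, 2116 and 2009 CPM in the KD_OE libraries. The last group was below all 6 other libraries. MT-CYB fell there by 0.32 ± 0.09 against control (adjusted p = 0.00481) and by 0.29 ± 0.09 against the KD_NC libraries (adjusted p = 0.0104), and both calls were made in all 18 alternatives. The KD_NC libraries differed from control by -0.03, with a 95% interval from -0.21 to 0.16.

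The mRNAs of complex IV, cytochrome c oxidase, diverged. MT-CO3 (9207 to 9990) fell in every comparison, from 6614, 6578 and 7080 CPM in control to 5231, 4736 and 5729 CPM in the KD_NC libraries and 4180, 4674 and 4254 CPM in the KD_OE libraries. No groups overlapped. The log2 fold change was -0.37 ± 0.09 (adjusted p = 0.0046) for KD_NC against control and -0.63 ± 0.09 (adjusted p = 1.17e-05) for KD_OE against control, with both calls made in all 18 alternatives. For KD_OE against KD_NC it was -0.26 ± 0.09 (adjusted p = 0.0262), lost in 4 of 18, among them without replicate 1 or 3 of the KD_OE libraries (adjusted p = 0.0763 to 0.0823). MT-CO1 (5904 to 7445), the catalytic subunit, was at 13690, 13900 and 15140 CPM in control, at 13370, 16200 and 17670 CPM in the KD_NC libraries and at 16730, 17860 and 16800 CPM in the KD_OE libraries. It rose in the last group by 0.27 ± 0.10 against control (adjusted p = 0.0333), with no overlap, but the call was lost in 7 of 18 alternatives, including without any 1 of the 6 libraries of these groups (adjusted p = 0.0501 to 0.139). MT-CO2 (7586 to 8269) was not called in any comparison in the fit of all libraries. It was at 5807 to 6646 CPM in control, 5915 to 9178 CPM in the KD_NC libraries and 6291 to 6986 CPM in the KD_OE libraries. Without replicate 1 of the KD_NC libraries, MT-CO2 was 0.40 higher there than in control (adjusted p = 0.00559), beside 0.26 (adjusted p = 0.11) with it and 0.28 (adjusted p = 0.0167) with all libraries and no filter on low counts, and MT-CO1 was 0.25 higher (adjusted p = 0.0233), beside 0.15 (adjusted p = 0.292). Without replicate 1, MT-CO2 was at -0.31 in KD_OE against KD_NC (adjusted p = 0.0196), and without KD_NC replicate 3 MT-CO1 was 0.20 higher in KD_OE than in KD_NC (adjusted p = 0.0492). With all libraries that difference was 0.12 (adjusted p = 0.346), and 0.21 (adjusted p = 0.0389) after correction for GC content and length. The ratio of MT-CO3 to MT-CO1 counts was 0.475 ± 0.008 in control, 0.336 ± 0.051 in the KD_NC libraries and 0.255 ± 0.006 in the KD_OE libraries, again without overlap.

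Complex V, the ATP synthase, has the neighbours MT-ATP8 and MT-ATP6 (8527 to 9207), which share the 46 bases printed in capitals above and are made as a joint mRNA. MT-ATP6 was not called in the fit of all libraries. It was at 4110, 4299 and 4468 CPM in control, 3079, 4564 and 4545 CPM in the KD_NC libraries and 3816, 4044 and 3525 CPM in the KD_OE libraries. Replicate 1 of the KD_NC libraries was again the lowest. Without it, MT-ATP6 was at -0.27 in KD_OE against KD_NC (adjusted p = 0.0106) and at -0.19 in KD_OE against control (adjusted p = 0.0391, and 0.00854 in a fit of only these 2 groups). With all libraries, KD_OE against control was at -0.18 (adjusted p = 0.22), at -0.35 (adjusted p = 0.0103) after correction for GC content and length and at -0.32 (adjusted p = 0.0199) after correction for GC content alone. MT-ATP8 had only 103 to 302 counts per library, at 7.16, 9.002 and 7.31 CPM in control, 5.99, 7.06 and 8.19 CPM in the KD_NC libraries, and 9.43, 14.2 and 18.5 CPM in the KD_OE libraries. It rose in the last group, by 0.99 ± 0.20 against the KD_NC libraries (adjusted p = 0.000411) and by 0.84 ± 0.20 against control (adjusted p = 0.00135), with no overlap. Corrected for GC content and length, these values were 0.66 (adjusted p = 0.0576) and 0.30 (adjusted p = 0.358), and the difference from control corrected for GC content alone was 0.49 (adjusted p = 0.0937). Over all 18 alternatives the adjusted p ran from 7.41e-08 to 0.0576 against the KD_NC libraries and from 3.14e-06 to 0.358 against control. Per kilobase, MT-ATP8 had 37.8 ± 4.9 CPM in control and MT-ATP6 had 6303 ± 263 CPM. Both lie on the same mRNA, and how the counting treated reads in their overlap is not given in the sources used here.

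**Figure D3:**
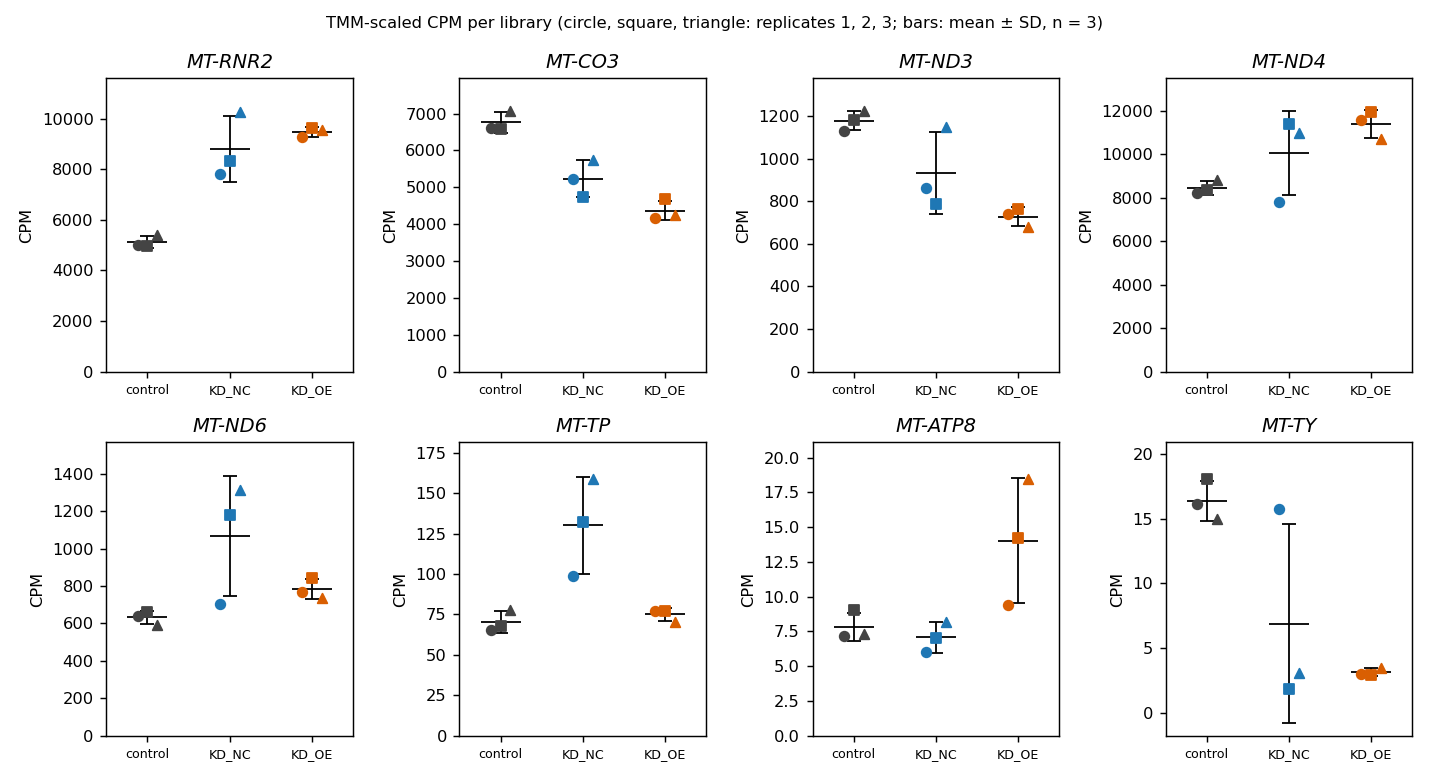
CPM scaled by the trimmed mean of M values (vertical axes, from 0 or below where the SD reaches it) of 8 mitochondrial genes by group; symbols are replicates, bars the mean and SD (n = 3). MT-CO3 falls from group to group without overlap, and replicate 1 of the KD_NC libraries (circle) lies within or near control for MT-ND4, MT-ND6 and MT-TY.

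The makeup of the mitochondrial mRNA pool shifted with the labels. MT-CO1 was the most abundant mRNA by counts, with 26.5% ± 0.2 of all mitochondrial mRNA counts in control, 27.7% ± 0.2 in the KD_NC libraries and 29.9% ± 0.6 in the KD_OE libraries. MT-ND4 took 15.8% ± 0.1, 17.6% ± 1.5 and 19.95% ± 0.52 in the same order. MT-CO3 took 12.6% ± 0.2, 9.29% ± 1.45 and 7.63% ± 0.21, and MT-ND3 took 2.20% ± 0.04, 1.64% ± 0.27 and 1.27% ± 0.04. For these 4 mRNAs the KD_OE libraries did not overlap control. MT-CO3 and MT-ND3 are separated on the genome by MT-TG alone, and the ratio of their counts was 5.73 ± 0.16, 5.69 ± 0.61 and 6.01 ± 0.32. It overlapped between all groups while both genes fell. MT-ND2 was even within groups, at 6.11% ± 0.04 in control, 4.97% ± 0.06 in the KD_NC libraries and 6.09% ± 0.20 in the KD_OE libraries.

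Per kilobase of gene length the order in control was MT-CO1 (9235 CPM), MT-CO2 (9014 CPM) and MT-CO3 (8619 CPM), neighbours whose libraries overlapped. MT-ATP6 (6303 CPM), MT-ND4L (6295 CPM) and MT-ND4 (6147 CPM) followed, also overlapping among themselves. Next came MT-ND3 (3408 CPM), MT-RNR2 (3289 CPM) and MT-ND2 (3150 CPM), which overlapped. MT-CYB (2223 CPM), MT-ND1 (1862 CPM), MT-ND5 (1392 CPM), MT-ND6 (1205 CPM), MT-RNR1 (679.2 CPM) and MT-ATP8 (37.8 CPM) were each apart from the next. In the KD_OE libraries, MT-CO3 and MT-ATP6 (both 5573 CPM) ranked after MT-ND4L (8492 CPM), MT-ND4 (8288 CPM) and MT-RNR2 (6083 CPM), the last of which overlapped MT-CO3. As background, both rRNAs are far more abundant in cells than the mRNAs. Whether adenine-tailed RNA was selected or rRNA removed is not given in the sources used here.

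**Figure D4:**
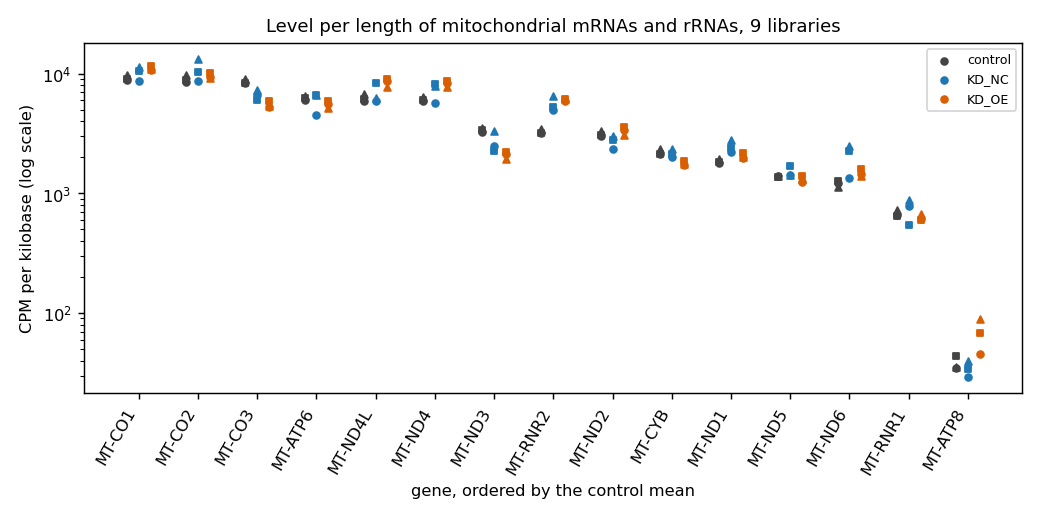
CPM per kilobase of gene length (vertical axis, log scale) of the 13 mRNAs and 2 rRNAs, ordered by the control mean; each point is 1 of 9 libraries, coloured by labelled group with a symbol per replicate. MT-RNR1, with a mean of 679.2 in control, lies below the other genes except MT-ATP8, which lies below 100 in all libraries.

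Of the 22 tRNAs, 10 were tested. In the KD_NC libraries against control 2 rose (MT-TP and MT-TT), where 34.6% of all genes tested were called. In KD_OE against KD_NC MT-TL1 rose and MT-TP fell, where 49.2% of all genes were called. KD_OE against control gave 2 higher (MT-TL1 and MT-TT) and 2 lower (MT-TY and MT-TG), where 56.3% of all genes were called. MT-TH, which passed the filter only through control and KD_NC replicate 1 and so had to differ, is not counted among these. Nearly all tRNA counts came from the 8 genes on the minus strand, which held 47395 of 49830 counts, and MT-TN, MT-TC and MT-TP held 23303, 8512 and 14188 of them. The other 14 held 2435. As for MT-ND6, reads from the opposite strand of a tRNA gene could not be told apart.

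MT-TP, for proline, lies at the start of the minus-strand precursor that also holds MT-ND6. Both were highest in the KD_NC libraries by group mean, but in KD_OE MT-TP overlapped control while MT-ND6 lay above it. MT-TP was at 65.1, 68.0 and 78.0 CPM in control, at 98.8, 132.5 and 158.8 CPM in the KD_NC libraries and at 77.3, 77.4 and 70.3 CPM in the KD_OE libraries. The KD_NC libraries were above all others. MT-TP rose by 0.89 ± 0.13 for KD_NC against control (adjusted p = 3.74e-05; 0.53, adjusted p = 0.00333, after correction for GC content) and fell by 0.79 ± 0.13 in KD_OE against KD_NC (adjusted p = 4.85e-05), the latter in all 18 alternatives. For KD_OE against control the difference was 0.09 (adjusted p = 0.569). Corrected for GC content and length these values were 0.65 (adjusted p = 0.0591), -1.53 (adjusted p = 0.000914) and -0.88 (adjusted p = 0.0132). MT-TP counts were 0.112 ± 0.017 of MT-ND6 counts in control, 0.125 ± 0.014 in the KD_NC libraries and 0.0958 ± 0.0044 in the KD_OE libraries. This ratio was lower in every KD_OE library than in any other library.

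MT-TN, MT-TC and MT-TY, neighbours on the minus strand, split the KD_NC libraries. MT-TY was at 16.1, 18.1 and 14.98 CPM in control and at 2.96, 2.95 and 3.48 CPM in the KD_OE libraries. In the KD_NC libraries it was at 15.8 CPM in replicate 1, within the control range, and at 1.84 and 3.04 CPM in the other two. MT-TC was at 81.6, 93.2 and 83.3 CPM in control, at 83.3, 17.5 and 31.7 CPM in the KD_NC libraries and at 32.4, 39.8 and 51.0 CPM in the KD_OE libraries. MT-TN was at 159.1, 185.3 and 185.5 CPM, at 235.5, 77.3 and 130.1 CPM, and at 121.9, 132.0 and 166.6 CPM in the same order. With all libraries, none of the 3 was called for KD_NC against control, at -1.27 (MT-TY, adjusted p = 0.222), -0.97 (MT-TC, adjusted p = 0.225) and -0.26 (MT-TN, adjusted p = 0.649). Without replicate 1 of the KD_NC libraries these values were -2.76 (adjusted p = 4.54e-08), -1.81 (adjusted p = 0.000368) and -0.77 (adjusted p = 0.0167). KD_OE against control gave -2.39 ± 0.78 for MT-TY (adjusted p = 0.0381), a call lost without any 1 of the 6 libraries of these groups (adjusted p = 0.0757 to 0.108) and without the filter on low counts (0.0826). For MT-TC this difference was -1.07 (adjusted p = 0.145) with all libraries and -1.08 (adjusted p = 0.00151) without replicate 1 of the KD_NC libraries, although that library is in neither group, since all groups share the estimate of spread. In a fit of only control and KD_OE, MT-TC was at -1.06 (adjusted p = 2.54e-05) and MT-TN at -0.33 (adjusted p = 0.0137). After correction for GC content and length, MT-TC was at -1.53 (adjusted p = 0.0474). In KD_OE against KD_NC none of the 3 was called with all libraries, and without KD_NC replicate 1 MT-TC was 0.74 higher in KD_OE (adjusted p = 0.0332).

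On the plus strand MT-TH and MT-TG showed the same split. MT-TH, for histidine, had 34, 51 and 49 counts in control, 43, 1 and 6 in the KD_NC libraries and 6, 6 and 4 in the KD_OE libraries. MT-TG, for glycine, was at 3.58, 3.00 and 2.27 CPM in control, at 2.73, 0.646 and 1.40 CPM in the KD_NC libraries and at 0.924, 0.826 and 0.977 CPM in the KD_OE libraries. MT-TH passed the filter on low counts only through control and KD_NC replicate 1, so its p is given only without the filter. KD_OE against control gave -3.07 for MT-TH and -1.69 ± 0.40 for MT-TG (adjusted p = 0.00135). The MT-TG call was made in all 18 alternatives, and its value was -2.68 after correction for GC content. For KD_NC against control they were at -1.55 (MT-TH) and -0.90 (MT-TG, adjusted p = 0.0653). MT-TG was at -1.28 (adjusted p = 0.0198) after correction for GC content and length, -1.38 (adjusted p = 0.0163) after correction for GC content alone and -0.88 (adjusted p = 0.0359) without the filter on low counts, where MT-TH was at -1.53 (adjusted p = 0.00242). Without replicate 1 of the KD_NC libraries they were at -3.81 (MT-TH) and -1.54 (MT-TG, adjusted p = 0.0033). In KD_OE against KD_NC neither was called in the fit of all libraries, at -1.53 (MT-TH) and -0.79 (MT-TG, adjusted p = 0.129). MT-TG corrected for GC content and length was at -1.72 (adjusted p = 0.0047), corrected for GC content alone at -1.31 (adjusted p = 0.0279), and MT-TH without the filter at -1.56 (adjusted p = 0.0192). Without KD_NC replicate 2 they were at -2.16 (MT-TH) and -1.22 (MT-TG, adjusted p = 0.00876). Over the 10 tested tRNAs, replicate 1 of the KD_NC libraries was within the control range for 6, replicate 2 for 1 and replicate 3 for 2. The 13 mRNAs did not show this, with replicate 1 within that range for 2, replicate 2 for 1 and replicate 3 for 4.

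MT-TL1 (3230 to 3304), for leucine, adjoins MT-RNR2, which ends 1 base before it. It was at 5.20, 5.35 and 6.26 CPM in control, at 6.86, 7.35 and 5.85 CPM in the KD_NC libraries and at 10.3, 10.9 and 11.2 CPM in the KD_OE libraries, above all others. It rose there by 0.94 ± 0.15 against control (adjusted p = 3.56e-05) and by 0.68 ± 0.15 against the KD_NC libraries (adjusted p = 0.000853). Corrected for GC content and length, the differences were 0.21 (adjusted p = 0.225) and 0.11 (adjusted p = 0.529), and every other alternative kept both calls, with 0.54 (adjusted p = 0.00459) against control after correction for GC content alone. MT-TT (15888 to 15953), for threonine, had 25 to 28 counts in control, 38 to 65 in the KD_NC libraries and 41 to 46 in the KD_OE libraries, with both KD_NC and KD_OE above control. Its rise of 0.78 ± 0.25 for KD_NC (adjusted p = 0.0202) was lost in 5 of 18 alternatives, among them without control 2 or 3 or KD_NC 2 (adjusted p = 0.0592 to 0.0714). Its rise of 0.66 ± 0.25 for KD_OE (adjusted p = 0.0331) was lost in 10, among them without any 1 of the 6 libraries of these groups (adjusted p = 0.0587 to 0.0885). MT-TR had 5 to 36 counts per library and MT-TE 1 to 13, and neither was called in the fit of all libraries. MT-TR was at -0.91 (adjusted p = 0.0723) for KD_OE against control and -0.81 (adjusted p = 0.117) against KD_NC. These became -2.33 (adjusted p = 0.000517) and -1.77 (adjusted p = 0.00516) after correction for GC content and length, and -2.02 (adjusted p = 0.00164) and -1.34 (adjusted p = 0.0254) after correction for GC content alone. Without the filter on low counts the first was at -0.92 (adjusted p = 0.0481). MT-TE passed the filter only through control replicate 2 and KD_NC replicates 1 and 2. Its lower values in KD_OE follow from that and are given without a p. They were -1.02 against control and -1.14 against KD_NC, and -1.74 and -1.71 after correction for GC content and length. Corrected for GC content alone, MT-TE was at -1.41 for KD_OE against control. Without KD_OE replicate 3, MT-TR was at -1.67 for KD_OE against control (adjusted p = 0.00347) and -1.57 against KD_NC (adjusted p = 0.00674). Without KD_OE replicate 2, MT-TE was at -1.89 for KD_OE against KD_NC.

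The other 12 tRNAs (MT-TF, MT-TV, MT-TI, MT-TQ, MT-TM, MT-TW, MT-TA, MT-TS1, MT-TD, MT-TK, MT-TS2 and MT-TL2) had 0 to 14 counts per library and were not tested. MT-TS1 had 0 counts in all 9 libraries, which allows up to 0.152 to 0.198 CPM, for counting error only.

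Nuclear copies of mitochondrial sequence can take or give reads, and 407 such genes were in the table. Of these, 308 had no count in any library, 6 were tested, and the 5 with the highest counts held 99.2% of 110650 counts. MTATP6P1 (chromosome 1, 633696 to 634376) is 98.5% identical to MT-ATP6 with identical runs of up to 141 bases. Its counts were 9.77 to 10.6% of those of MT-ATP6 in every library, and it was not called in any comparison. MTND2P28 (chromosome 1, 629640 to 630683), 98.4% identical to MT-ND2, had 7.35 to 10.1% of its counts. It rose in KD_OE against KD_NC by 0.43 ± 0.15 (adjusted p = 0.0309), beside 0.30 for MT-ND2, although its libraries overlapped. MTCO1P12 (chromosome 1, 631074 to 632616) had 0.123 to 0.215% of the counts of MT-CO1, and fell by 0.41 ± 0.11 for KD_OE against control (adjusted p = 0.00435), where MT-CO1 rose. MTCO3P12 (chromosome 1, 634376 to 634922) had 9, 3 and 11 counts in control, 5, 73 and 39 in the KD_NC libraries and 22, 19 and 25 in the KD_OE libraries. It rose for KD_NC against control by 2.10 ± 0.65 (adjusted p = 0.02), where MT-CO3 fell. Replicate 1 of the KD_NC libraries was within the control range, so the groups overlapped. MTND4P12 (chromosome 5, 134926660 to 134928036) had 9 to 25 counts per library and was not called. MTATP8P1, 97.6% identical to MT-ATP8, had 0 counts in all 9 libraries and was chosen after its values were seen. The treatment of reads that match several places is not given in the sources used here, and how far the copies alter the levels of MT-ATP6, MT-ND2 or MT-CO1 was not tested. MT-CO1 is 98.6% identical to MTCO1P12, with identical runs of up to 245 bases.

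Nuclear genes that act on mitochondrial RNA and DNA were followed through 6 lists with 87 genes, of which 86 were tested. In the KD_NC libraries against control 9 rose and 28 fell, with a median log2 fold change of -0.13 beside -0.01 over all genes. In KD_OE against KD_NC 9 rose and 34 fell (median -0.18, beside 0.01), and KD_OE against control gave 12 higher and 43 lower (median -0.31, beside 0.02). Of all genes tested, 34.6%, 49.2% and 56.3% were called in these comparisons, as above. By direction, 16.0%, 23.7% and 27.9% were higher and 18.5%, 25.6% and 28.4% lower. These shares stand beside the counts of every list below, and whether a list differs from them was not tested.

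Of 8 transcription genes, 2 fell for KD_NC against control, 2 in KD_OE against KD_NC and 3 for KD_OE against control, where 1 rose. POLRMT, the mitochondrial RNA polymerase, was at 56.9 ± 2.3 CPM in control, 41.3 ± 4.1 CPM in the KD_NC libraries and 31.8 ± 4.4 CPM in the KD_OE libraries. It fell in each comparison, by 0.46 ± 0.11 (adjusted p = 0.00314), 0.37 ± 0.11 (adjusted p = 0.0101) and 0.84 ± 0.11 (adjusted p = 3.7e-06). TFB2M, its initiation factor, fell against control by 0.49 ± 0.11 (adjusted p = 0.00179) and 0.74 ± 0.11 (adjusted p = 1.38e-05). TFAM, which packages mitochondrial DNA and takes part in initiation, fell in KD_OE against KD_NC by 0.44 ± 0.10 (adjusted p = 0.000918). MTERF1, a terminator protein, rose for KD_OE against control by 0.41 ± 0.14 (adjusted p = 0.0187), although the libraries overlapped.

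Of 21 genes of RNA processing and stability, 6 rose and 5 fell for KD_NC against control, 1 and 11 in KD_OE against KD_NC, and 3 and 10 for KD_OE against control. ELAC2, which cuts the 3′ ends of tRNAs, fell from 160.4 ± 7.3 CPM in control to 109.9 ± 4.8 CPM and 72.9 ± 1.4 CPM, by 0.55 ± 0.08 (adjusted p = 5.27e-05) and 1.14 ± 0.08 (adjusted p = 1.76e-09) against control. FASTKD5, needed to cut mRNA ends that no tRNA marks, fell for KD_OE against control by 1.11 ± 0.10 (adjusted p = 2.51e-08) and in KD_OE against KD_NC by 0.80 ± 0.10 (adjusted p = 2.61e-06). PDE12, which removes adenine tails, rose by 0.39 ± 0.10 (adjusted p = 0.00536) for KD_NC against control and fell by 0.83 ± 0.10 (adjusted p = 2.32e-06) in KD_OE against KD_NC. FASTK, an RNA-binding protein linked to MT-ND6 mRNA, fell by 0.55 ± 0.09 (adjusted p = 0.00013) and rose by 0.28 ± 0.09 (adjusted p = 0.0177) in these comparisons. LRPPRC, which stabilises mitochondrial mRNAs, rose for KD_OE against control by 0.50 ± 0.10 (adjusted p = 0.000488). TRNT1, which adds the terminal CCA to tRNAs, rose against control in both KD_NC and KD_OE, by 0.40 ± 0.11 (adjusted p = 0.00707) and 0.46 ± 0.11 (adjusted p = 0.0013).

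Among 20 genes of RNA modification, 6 fell for KD_NC against control, 9 fell and 2 rose in KD_OE against KD_NC, and 11 fell and 1 rose for KD_OE against control. PUS1, a pseudouridine synthase, fell against control by 0.62 ± 0.09 (adjusted p = 3.74e-05) and 0.90 ± 0.09 (adjusted p = 1.28e-07). TRMU, which adds sulfur to tRNAs, fell by 0.44 ± 0.08 for KD_NC against control (adjusted p = 0.000308). MRM2, which methylates the MT-RNR2 product, fell by 0.45 ± 0.09 in KD_OE against KD_NC (adjusted p = 0.000502) and by 0.79 ± 0.09 for KD_OE against control (adjusted p = 6.75e-07), and TRMT5, a tRNA methyltransferase, fell in KD_OE against KD_NC by 0.44 ± 0.11 (adjusted p = 0.00277). METTL15, which methylates the MT-RNR1 product, rose by 0.48 ± 0.18 in KD_OE against KD_NC (adjusted p = 0.0386), although the libraries overlapped. For KD_OE against control it rose by 0.53 ± 0.19 (adjusted p = 0.0214). QTRT1, part of the queuine transferase, rose in KD_OE against KD_NC by 0.31 ± 0.11 (adjusted p = 0.0259).

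The 14 translation factors gave 1 higher and 2 lower for KD_NC against control, 2 and 4 in KD_OE against KD_NC, and 4 and 4 for KD_OE against control. TUFM, the elongation factor that delivers tRNAs, fell in each comparison, from 490.1 ± 17.1 CPM in control to 362.4 ± 37.1 CPM and 232.1 ± 18.5 CPM (KD_OE against control: by 1.08 ± 0.09, adjusted p = 1.33e-08). TSFM, its exchange factor, fell in KD_OE against KD_NC by 0.70 ± 0.14 (adjusted p = 0.000348), and TACO1, a translational activator of MT-CO1, fell by 0.80 ± 0.14 for KD_OE against control (adjusted p = 8.88e-05). MRPL58, which rescues stalled ribosomes, fell by 0.43 ± 0.12 for KD_NC (adjusted p = 0.00788). GFM2, which recycles ribosomes, rose against control by 0.53 ± 0.10 (adjusted p = 0.000394) and 0.43 ± 0.10 (adjusted p = 0.00113). The initiation factors MTIF3 and MTIF2 rose in KD_OE against KD_NC by 0.62 ± 0.14 (adjusted p = 0.00102) and 0.24 ± 0.09 (adjusted p = 0.0366), and the release factor MTRF1 rose for KD_OE against control by 0.47 ± 0.12 (adjusted p = 0.0037).

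Of 16 genes of mitochondrial DNA replication and nucleotide supply, 2 rose and 8 fell for KD_NC against control, 3 and 5 in KD_OE against KD_NC, and 2 and 10 for KD_OE against control. TWNK, the replicative helicase, fell from 62.9 ± 2.9 CPM in control to 42.7 ± 3.3 CPM and 24.0 ± 2.9 CPM, by 0.56 ± 0.10 (adjusted p = 0.000375) and 1.39 ± 0.11 (adjusted p = 3.16e-09) against control. ATAD3A, a membrane protein tied to nucleoids, fell by 0.64 ± 0.11 (adjusted p = 0.000182) and 1.58 ± 0.12 (adjusted p = 1.52e-09). RRM2B, a ribonucleotide reductase subunit, rose by 0.54 ± 0.11 (adjusted p = 0.000581) and 0.88 ± 0.11 (adjusted p = 8.59e-07), and SLC25A36, a pyrimidine nucleotide carrier, by 0.39 ± 0.13 (adjusted p = 0.0235) and 1.41 ± 0.13 (adjusted p = 3.86e-08). Of 7 tested biogenesis regulators, 5 fell for KD_NC against control, 3 fell and 1 rose in KD_OE against KD_NC, and 5 fell and 1 rose for KD_OE against control. The nuclear receptor gene ESRRA fell against control by 0.93 ± 0.10 (adjusted p = 1.6e-06) and 1.01 ± 0.10 (adjusted p = 1.27e-07), and the coactivator gene PPRC1 by 0.47 ± 0.09 (adjusted p = 0.000394) and 0.86 ± 0.09 (adjusted p = 1.44e-07). The transcription factor gene NRF1 fell by 0.36 ± 0.11 in KD_OE against KD_NC (adjusted p = 0.00918). GABPA, another transcription factor gene, rose there by 0.32 ± 0.13 (adjusted p = 0.0447), although its libraries overlapped.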

How the data were processed

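The deposited file holds raw counts of 58735 genes in 9 libraries, whole numbers that the authors did not normalise. HISAT2 2.0.5, StringTie 1.3.3b, featureCounts 1.5.0-p3 and hg19 are listed, with no roles, per the submitters' processing notes. Yet start and end matched GENCODE v29 (GRCh38) for every gene, so GRCh38 positions are printed. How strand, overlapping genes and reads with several matches were handled is not given in the sources used here.

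Analysis used edgeR 4.0.16 in R 4.3.3. filterByExpr by group, with a minimum of 10 counts, kept 16812 genes, and TMM (trimmed mean of M values) gave the scaling. All 9 libraries entered a single robust quasi-likelihood fit on the 3 groups, Benjamini-Hochberg adjustment ran over every tested gene, and an adjusted p under 0.05 made a call. The SE divides the log2 fold change by the root of F. CPM values are TMM-scaled, class shares use raw counts, and shares, ratios and summed levels carry no test. The script was tested on simulated data. Errors describe the spread between labelled biological replicates of 1 cell line, and floors cover counting error only.

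Every mRNA, rRNA and tested tRNA is named, with AMIGO2 and CAPN2, and the 5 nuclear copies with most counts. Of each nuclear list, up to 2 risen and 2 fallen genes per contrast are named. These are the called genes with the lowest adjusted p, and do not represent their list. Members and lists were chosen with earlier results of these data known. Replicate numbers did not pair the samples, as deviations of same-numbered libraries correlated at -0.111 to 0.063. Alternatives were DESeq2 1.42.0, other scalings (relative log expression, upper quartile, nuclear genes only), no filter, only the 2 groups compared, a replicate block, leaving out each library, and, chosen after seeing the data, corrections for GC content with and without length (splines with 5 degrees of freedom).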

Additional observations from a re-analysis of the deposited data

How the results depend on the processing

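Of 30 calls of single mitochondrial genes, 11 were made in all 18 alternative analyses, 1 reversed and the rest were lost in at least 1. The 30 include MT-TH for KD_OE against control, which had to differ because of the filter. Counts of called mRNAs moved as follows. For KD_NC against control, higher calls (2) were 4 without the filter, 1 after correction for GC content and length, and 2 to 5 when leaving out 1 library each, with 5 without replicate 1 of the KD_NC libraries; lower calls (2) were 1 in a fit of only the 2 groups, 3 after either GC correction, and 1 to 3 when leaving out 1 library. For KD_OE against KD_NC, higher calls (3) were 2 with only the 2 groups and 1 to 3 when leaving out 1 library, and lower calls (5) were 2 with upper-quartile factors, 2 with only the 2 groups, 6 without the filter or after GC correction alone, 4 after correction for GC content and length, and 1 to 8 when leaving out 1 library, with 8 without replicate 1 of the KD_NC libraries. For KD_OE against control, higher calls (4) were 2 after either GC correction, 5 with upper-quartile factors or without the filter, 6 with only the 2 groups, and 3 to 5 when leaving out 1 library, and lower calls (3) were 4 with only the 2 groups or after either GC correction and 3 to 4 when leaving out 1 library. On TMM-scaled CPM the ratios of the class levels for KD_OE against control were 1.06 for mRNAs, beside 1.14, and 1.75 for rRNAs, beside 1.86. For mRNAs the libraries of KD_OE and control overlapped on that scale.

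These values changed sign, none of them called before except MT-TT. When leaving out 1 library, for KD_NC against control, MT-RNR1 ran from -0.031 to 0.33, MT-TN from -0.77 to 0.081, MT-ATP6 from -0.17 to 0.088, MT-TR from -0.22 to 0.062, MT-ND4L from -0.0071 to 0.22 and MT-CYB from -0.092 to 0.029. For KD_OE against KD_NC, MT-TN ran from -0.42 to 0.43, MT-TC from -0.52 to 0.74, MT-TY from -1.62 to 0.36, MT-TH from -2.16 to 0.73 and MT-CO2 from -0.31 to 0.016, with the 4 tRNAs positive without KD_NC replicate 1. Corrected for GC content and length, MT-ND4L (-0.015) and MT-TE (-0.031) for KD_NC against control, and MT-ND2 (-0.084), MT-CO2 (-0.0090), MT-TT (-0.13) and MT-TP (-0.88) for KD_OE against control changed sign. Corrected for GC content alone, MT-ND4L (-0.019), MT-TE (-0.12), MT-ND2 (-0.10) and MT-TP (-0.55) did so. With upper-quartile factors MT-CYB for KD_NC against control (0.016) and MT-ND5 for KD_OE against control (0.029) did. With the replicate block, MT-TC for KD_OE against KD_NC was at 0.055, no call of a mitochondrial gene was lost, and MT-TG was called for KD_NC against control (adjusted p = 0.0385).

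The cause of these changes was not tested. Across 16802 tested genes, Spearman's rho of the log2 fold change with GC content was -0.363, -0.083 and -0.287 in the 3 comparisons, a description over genes that are not independent. The length correction of tRNAs rests on 65 tested genes under 100 bases, 10 of them mitochondrial. Upper-quartile factors moved the median of all genes by 0.103 for KD_OE against control. With 3 libraries a group, 1 library can decide a call, and replicate 1 of the KD_NC libraries did so for several tRNAs.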
